A study of Mus musculus with 10 samples.

Results

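Noct and 9 other genes, taken here as outputs of the circadian clock, were followed in livers of mice. In some of the mice the microRNA miR-122 was targeted by an antisense oligonucleotide, called the ASO below. The genes listed were Noct, Dbp, Tef, Hlf, Ciart, Nfil3, Usp2, Upp2, Lonrf3 and Tsc22d3, and a gene was measured where the array annotation gave a probe to it alone. This left 9 of 10 genes on 13 probes, among 18012 genes on 21525 single-gene probes in all, and all 13 probes entered the fit. The 1 probe that names Dbp also names 2 other genes, Sphk2 and Pip5k1c, so no value is given for Dbp. The genes were picked as clock outputs with earlier results of the ASO against saline comparison in view, so that difference is described here without a test for each gene.

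Each of 10 mice was measured on its own 1-colour CodeLink oligonucleotide array, from total liver RNA. Per the labels, 5 mice received 50 mg/kg of the miR-122 ASO, which has 2′-O-methoxyethyl sugars and a phosphorothioate backbone, by intraperitoneal injection 2 times a week for 4 weeks, and 5 mice received saline on that schedule. Livers were collected 2 days after the final injection. Male C57Bl/6 mice are named for the ASO group, while the sources used here do not give the strain and sex of the saline group, the age of the mice or the time of day at which livers were taken. The control was saline and not another oligonucleotide, so effects of the chemistry and of blocking miR-122 cannot be told apart.

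The circadian clock of hepatocytes is a transcriptional loop in which CLOCK and BMAL1 (the gene Arntl) bind E-box sequences and are held back by PER, CRY and REV-ERB proteins. Its outputs include the PAR bZIP transcription factors Dbp, Tef and Hlf, which activate genes through D-box sequences, and Nfil3, a repressor that binds the same sequences. Noct encodes nocturnin, a member of the exonuclease-endonuclease-phosphatase family that was first described as a deadenylase and for which NADPH is a reported substrate. Its messenger RNA cycles in liver, and it has been reported as a target of miR-122, which hepatocytes make in large amounts. Usp2 encodes a deubiquitinase, Ciart a repressor of CLOCK and BMAL1 and Upp2 a uridine phosphorylase of liver. Tsc22d3 encodes GILZ, a leucine zipper protein induced by glucocorticoids, and Lonrf3 a RING finger protein with a LON domain.

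Across the arrays, single-array medians lay between 1.03 and 1.05 intensity units and each array had between 74 and 377 values of 0 or less. The brightest value on saline replicate 1 was 542 units, against 1198 to 2333 on the other arrays, so the Noct values are also given without that array. Hepatocyte markers were bright (Alb at 9.84 ± 0.59 in saline and 10.40 ± 0.21 in ASO livers, log2 intensity, SD, n = 5 per group). The number of arrays limits the precision. Over all 36088 probes tested with limma, 23 passed a Benjamini-Hochberg adjusted p of 0.05 (0.0637%), and 4057 had an unadjusted p under 0.05 (11.2%), with 4.58% higher and 6.66% lower in ASO livers. Groups did not overlap at 2.37% of probes.

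Noct stood higher in every ASO liver than in any saline liver. Its probe (108015) read 1.81, 1.63, 2.23, 2.04 and 2.15 on the log2 intensity scale in saline replicates 1 to 5. In ASO replicates 1 to 5 it read 3.24, 3.33, 3.90, 5.11 and 4.91. The lowest ASO liver lay 1.01 above the highest saline liver, and ASO replicates 4 and 5 were the highest of the group. The means were 1.97 ± 0.25 in saline and 4.10 ± 0.87 in ASO livers (SD, n = 5 per group), a difference of 2.13 ± 0.36 (SE), or 4.37-fold. By the size of an increase this was number 9 among the 36088 probes. Leaving out 1 array at a time gave 1.87 to 2.34, the lowest without ASO replicate 4 and the highest without ASO replicate 1, and 2.09 without saline replicate 1.

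Of the 13 probes, 0 passed the adjusted threshold in limma, against 0.0637% of all probes, and 5 had an unadjusted p under 0.05, against 11.2%. These 5 were Noct, the brightest Tef probe and Ciart, higher, and the brightest Upp2 probe and the dimmer Lonrf3 probe, lower. Without saline replicate 1 there were 2 such probes (7.85% of all probes), and without ASO replicate 5 there were 3 (14.3%). In the other fits without 1 array there were 4 to 7 (9 to 12.1% of all probes). Noct passed the adjusted threshold after cyclic loess normalization (0.108% of all probes) and with a pseudocount in place of the floor (0.103%). It also passed with trend and robust variances (0.116%) and when the probes below the median level were left out (0.405% of those kept). In the other alternatives Noct did not pass. Only Noct had groups that did not overlap, 1 of 13 probes against 2.37% of all. Nothing is read from these counts or from the settings in which Noct passed, since the genes were picked on this comparison.

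**Figure D1:**
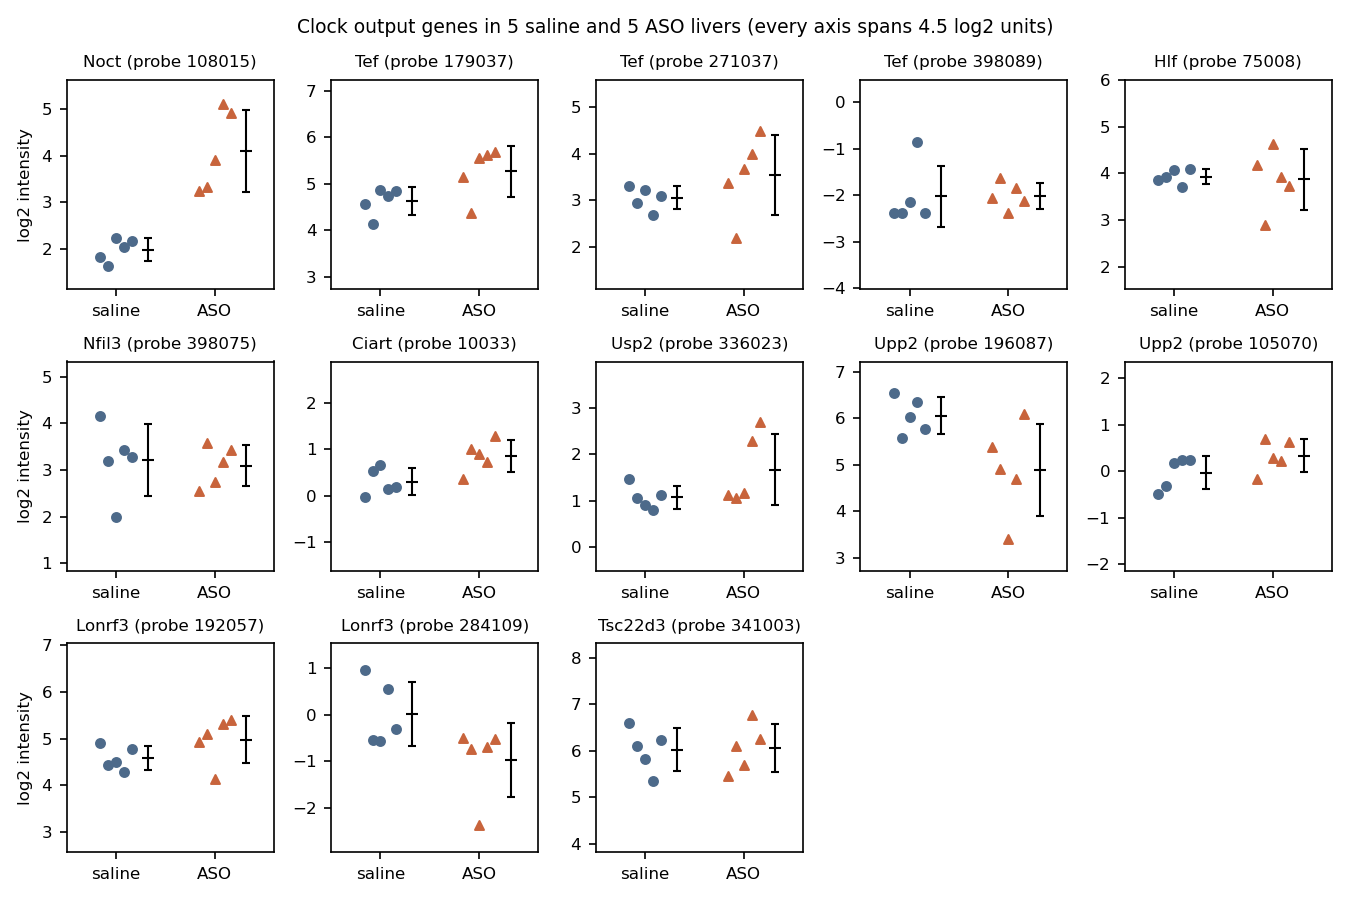
Log2 intensity of each of the 13 probes in 5 saline mice (circles) and 5 ASO mice (triangles), with the mean and SD of each group beside the points; every vertical axis spans the same number of log2 units. Noct is the only probe where the groups are apart (saline up to 2.23, ASO from 3.24 up), and the 3 Tef, 2 Upp2 and 2 Lonrf3 probes do not all show the same difference.

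Among the PAR bZIP factors, Tef stood higher at its 2 brighter probes, while Hlf did not separate the groups. The brightest Tef probe (179037) read 4.56, 4.15, 4.87, 4.73 and 4.84 in saline replicates 1 to 5 and 5.14, 4.37, 5.55, 5.61 and 5.68 in ASO replicates 1 to 5 (log2 intensity). All ASO livers but replicate 2 lay above the highest saline liver. The difference was 0.64 ± 0.26 (SE), or 1.56-fold. The second Tef probe (271037) had 0.49 ± 0.36 with the same 4 ASO livers above all saline livers and replicate 2 below them all, and its difference was 0.83 without ASO replicate 2 and 0.25 without ASO replicate 5. The third Tef probe (398089) lay at the intensity floor in 4 of 10 livers, with a difference of 0.02 ± 0.30. Hlf spread from 3.71 to 4.09 in saline and from 2.89 to 4.63 in ASO livers, with a difference of -0.06 ± 0.28, which was 0.19 without ASO replicate 2. ASO replicate 2 was the lowest liver of its group for Hlf and for both brighter Tef probes.

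Nfil3, the repressor at D-box sequences, overlapped between groups. It spread from 2.00 to 4.17 in saline and from 2.55 to 3.58 in ASO livers (log2 intensity), and the difference was -0.12 ± 0.36 (SE). Its sign turned without saline replicate 1 (0.12), and it was -0.42 without saline replicate 3.

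Ciart, the repressor of CLOCK and BMAL1, read -0.02, 0.54, 0.67, 0.15 and 0.19 in saline replicates 1 to 5 (log2 intensity, probe 10033). In ASO replicates 1 to 5 it read 0.36, 0.996, 0.91, 0.72 and 1.29, so that 4 of 5 ASO livers lay above all saline livers. The difference was 0.55 ± 0.21 (SE), or 1.47-fold. Usp2 read 1.47, 1.07, 0.90, 0.80 and 1.13 in saline and 1.13, 1.06, 1.17, 2.28 and 2.69 in ASO livers. Only ASO replicates 4 and 5, which were also the highest for Noct, lay above the saline range. The Usp2 difference of 0.59 ± 0.33 was 0.33 without ASO replicate 5.

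Both genes with a pair of probes, Upp2 and Lonrf3, gave differences of opposite sign at those probes. The brighter Upp2 probe (196087) read 6.54, 5.58, 6.02, 6.34 and 5.76 in saline replicates 1 to 5 and 5.37, 4.90, 3.39, 4.69 and 6.09 in ASO replicates 1 to 5 (log2 intensity). Of the ASO livers, 4 of 5 lay below all saline livers and replicate 5 lay within their range. The difference was -1.16 ± 0.42 (SE), or 2.23-fold lower. The dimmer Upp2 probe (105070), designed on another transcript sequence, had a difference of 0.36 ± 0.22. The brighter Lonrf3 probe (192057) had 0.39 ± 0.25, and 0.60 without ASO replicate 3, with 4 of 5 ASO livers above the saline range. The dimmer Lonrf3 probe (284109), below the median level of all probes, had -0.99 ± 0.41, and -0.63 without ASO replicate 3, which lay at the floor.

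Tsc22d3, the glucocorticoid-induced gene, overlapped between groups. It spread from 5.36 to 6.60 in saline and from 5.47 to 6.78 in ASO livers (log2 intensity), with a difference of 0.03 ± 0.29 (SE). With each gene at its brightest probe, 6 of 9 genes were higher and 3 lower in ASO livers. The median difference was 0.39, beside -0.0029 over all tested probes. When each gene was averaged over its probes, the median was 0.03.

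**Figure D2:**
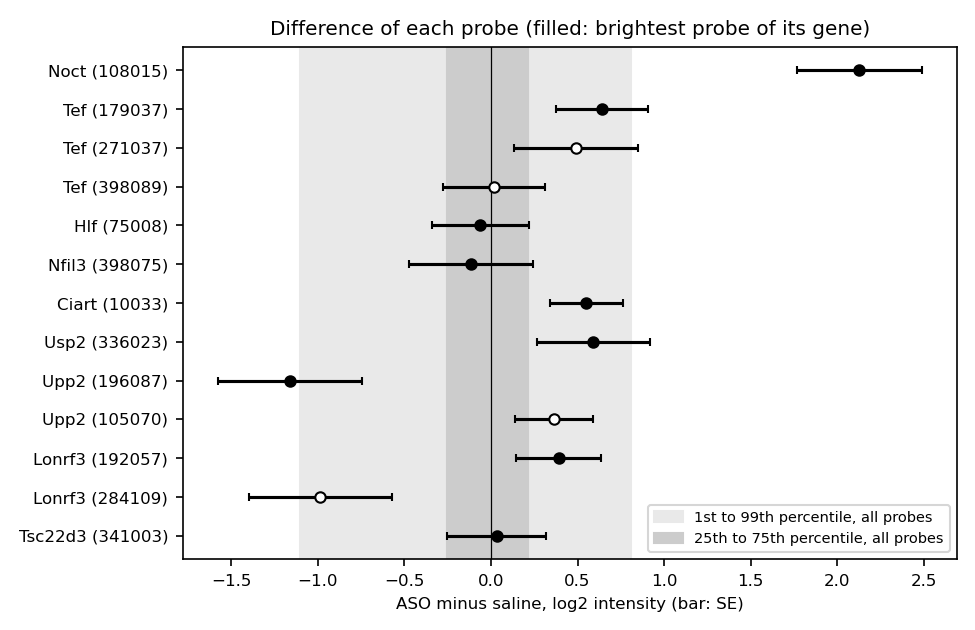
ASO minus saline difference in log2 intensity for each of the 13 probes, with its standard error; filled points are the brightest probe of a gene, and shaded bands give the 25th to 75th and the 1st to 99th percentile over all 36088 probes. Noct (2.13) lies beyond the 99th percentile (0.81) and the brighter Upp2 probe (-1.16) just beyond the 1st (-1.10), while the other probes lie between these.

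Variation between mice of the same group is separate from the comparison that picked the genes, so it was tested. Each value was centred on the mean of its group, and Noct was related to each of the 8 other genes over 10 mice by an exact permutation test over the 14400 rearrangements of mice within groups (two-sided). No relation passed after Benjamini-Hochberg adjustment over the 8, and 1 had an unadjusted p under 0.05. That was Tef, with Pearson r = 0.76 (p = 0.0242, adjusted p = 0.193) and Spearman rho = 0.83 (p = 0.00972, adjusted p = 0.0778) by the exact permutation test. Noct and Tef were both above their group mean in saline replicates 3, 4 and 5 and in ASO replicates 4 and 5. Without the 2 mice farthest from the Noct median, ASO replicates 4 and 5, r was 0.79 (n = 8, exact permutation p = 0.0528). Leaving out 1 mouse moved this relation both ways. Without ASO replicate 1 (r = 0.83) or without ASO replicate 2 (r = 0.72) it passed (exact permutation, adjusted p = 0.0111 in each). Without ASO replicate 2 it thus passed at a lower r than the 0.76 of all mice. The unadjusted p was over 0.05 without ASO replicate 5 (exact permutation p = 0.128, adjusted p = 0.707), without ASO replicate 4 (p = 0.0705, adjusted p = 0.542) and without saline replicate 2 (p = 0.0774, adjusted p = 0.404).

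Usp2 had the highest r with Noct, 0.81 (exact permutation p = 0.0983, adjusted p = 0.393; rho = 0.78, p = 0.0796, adjusted p = 0.318). Without ASO replicates 4 and 5 it was -0.23 (n = 8, exact permutation p = 0.586), so this value rested on those mice. Tsc22d3 had r = 0.51 (exact permutation p = 0.195, adjusted p = 0.520; rho = 0.50, p = 0.169, adjusted p = 0.368), which was -0.25 without the same mice. For the 5 remaining genes r lay between 0.03 (Nfil3) and 0.38 (Lonrf3), with exact permutation p of 0.455 (Ciart) to 0.920 (Nfil3).

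**Figure D3:**
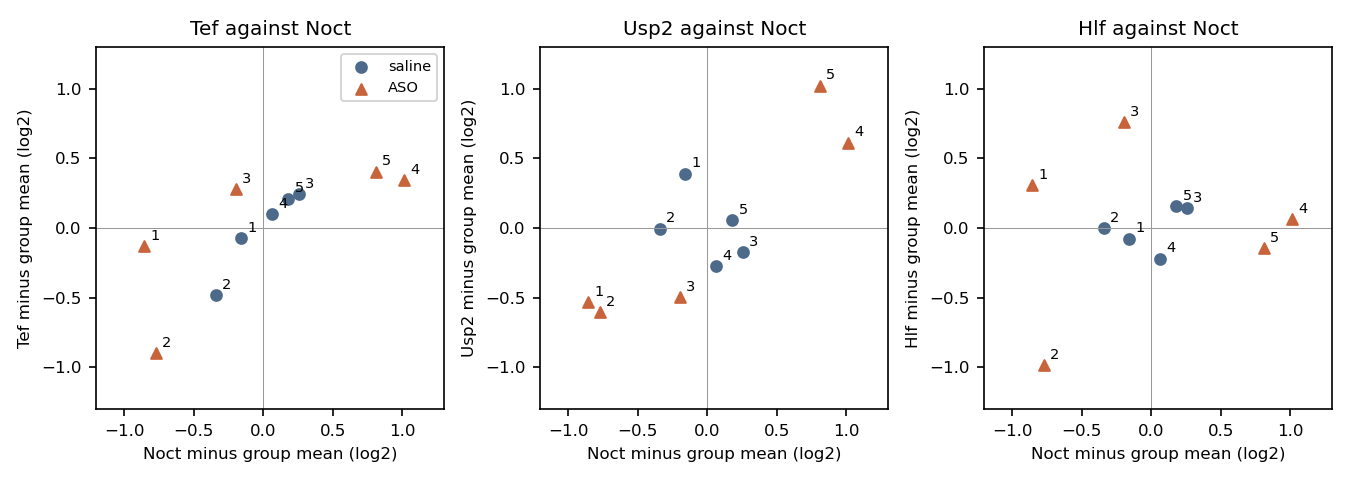
Group-centred log2 values of Tef, Usp2 and Hlf against those of Noct in 10 mice (circles, saline; triangles, ASO; numbers are replicates). Tef had r = 0.76 and Usp2 r = 0.81, where ASO replicates 4 and 5 lie apart at the upper right, and Hlf had r = 0.15; none of the 3 passed after adjustment.

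By the same group-centred r, the genes most like Noct among 10203 genes above the median level were Alg8 (0.95), a glucosyltransferase of N-glycan assembly, Zmynd8 (0.91), a chromatin reader, Dtymk (0.90), thymidylate kinase, Itgb1bp1 (0.90), an integrin-binding adaptor, and Plscr1 (0.90), a phospholipid scramblase. They were picked as the highest of 10203 values of r over 10 mice, where chance can give high values, and were not tested. Their own ASO minus saline differences were -0.21 ± 0.23, 0.16 ± 0.22, -0.47 ± 0.19, -0.28 ± 0.26 and -0.05 ± 0.16 (log2, SE) in that order. Usp2 was number 41 and Tef number 117 in that ranking. The points share the same 10 arrays, and the ASO mice, in which Noct spread more, weigh most in r. On the GRCm38.p6 assembly the nearest genes with a single-gene probe on either side of Noct are Slc7a11 and Elf2. Slc7a11 lay at the floor in 6 of 10 livers, and Elf2, an ETS transcription factor, had a difference of 0.28 ± 0.29.

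Promoter windows of all 9 genes were found in a RefSeq table of GRCm38.p6, in 13 windows from 250 bases before to 50 bases after an annotated start. Noct is shown beside Tef, Ciart and Lonrf3, the genes whose windows held the E-box CACGTG, a sequence bound by CLOCK and BMAL1. Capitals mark the E-box, read on either strand, which is its own reverse complement. Each sequence is written 5′ to 3′ on the strand of its gene.
Noct, chr3:51224197-51224496, plus strand: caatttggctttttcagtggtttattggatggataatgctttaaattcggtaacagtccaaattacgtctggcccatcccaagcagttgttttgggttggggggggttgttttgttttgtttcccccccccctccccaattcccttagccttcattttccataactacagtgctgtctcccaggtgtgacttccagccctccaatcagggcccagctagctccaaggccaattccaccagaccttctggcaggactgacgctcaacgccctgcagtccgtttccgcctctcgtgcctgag
Tef, first window, chr15:81802423-81802722, plus strand: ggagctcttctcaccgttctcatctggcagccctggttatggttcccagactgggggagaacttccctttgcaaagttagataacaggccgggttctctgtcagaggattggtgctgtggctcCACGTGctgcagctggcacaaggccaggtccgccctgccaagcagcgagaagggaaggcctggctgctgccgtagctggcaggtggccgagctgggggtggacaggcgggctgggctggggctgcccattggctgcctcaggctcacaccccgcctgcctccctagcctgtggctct
Tef, second window, chr15:81811164-81811463, plus strand: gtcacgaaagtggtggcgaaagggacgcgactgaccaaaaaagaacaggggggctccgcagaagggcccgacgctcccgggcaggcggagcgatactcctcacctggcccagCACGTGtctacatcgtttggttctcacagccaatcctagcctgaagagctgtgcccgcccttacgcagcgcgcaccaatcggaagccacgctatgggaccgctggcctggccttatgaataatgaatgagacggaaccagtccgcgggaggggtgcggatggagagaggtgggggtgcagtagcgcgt
Ciart, chr3:95882179-95882478, minus strand: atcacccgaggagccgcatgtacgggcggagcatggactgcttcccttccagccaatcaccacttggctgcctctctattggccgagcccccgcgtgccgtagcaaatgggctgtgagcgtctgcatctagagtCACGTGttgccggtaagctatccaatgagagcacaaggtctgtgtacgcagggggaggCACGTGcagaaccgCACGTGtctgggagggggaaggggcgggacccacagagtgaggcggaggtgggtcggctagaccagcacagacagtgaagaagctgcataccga
Lonrf3, chrX:36328159-36328458, plus strand: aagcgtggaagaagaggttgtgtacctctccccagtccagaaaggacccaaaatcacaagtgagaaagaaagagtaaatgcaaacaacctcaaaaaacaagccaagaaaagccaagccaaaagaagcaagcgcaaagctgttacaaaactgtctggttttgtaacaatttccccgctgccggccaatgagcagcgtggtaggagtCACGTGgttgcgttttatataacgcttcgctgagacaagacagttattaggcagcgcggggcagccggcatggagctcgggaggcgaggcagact

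Ciart had 3 E-boxes, the nearest with its last base at -39 from the start, Lonrf3 had 1 ending at -40, and each Tef window had 1, ending at -122 and -133. The E-box was found in 4 of the 13 windows, from 3 of 9 genes, and in 7.15% of the 32851 promoter windows of the table. In the Noct window the letters were absent. The D-box, searched as TTATGTAA and TTACGTAA on both strands, was in 0 of the 13 windows and in 1.06% of all. The cyclic AMP response element TGACGTCA was in 1 window, that of Hlf, and in 1.79% of all. Its part TGACG was in 5 windows, that of Noct among them, and in 20.8% of all. The E-box variant CACGTT was in 0 windows (4.68% of all), as was the ROR element (0.371%). A glucocorticoid response element was in 0 windows (0.00913% of all) and its part AGAACA in 2 (19%). A match is a description of these windows, and no measurement of binding was made.

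The core clock list, of 20 names with 17 measured, had 0 genes called in limma (0.0637% of all probes). The names Bmal1 and Arntl stand for the same gene, which was measured as Arntl. At an unadjusted p under 0.05, 3 of 17 were lower (6.66% of all probes) and 0 higher (4.58%), and the median difference was -0.13, which was -0.04 without saline replicate 3 and turned to 0.03 without ASO replicate 5. Arntl, the gene of BMAL1, read 3.92, 3.92, 3.09, 3.41 and 3.50 in saline and 2.85, 2.89, 2.45, 2.25 and 2.05 in ASO replicates 1 to 5 (log2 intensity). The groups did not overlap for Arntl, as at 2.37% of all probes, and the difference was -1.07 ± 0.23 (SE). In the ASO group, replicates 4 and 5 were the highest for Noct and the lowest for Arntl. This was picked out after the values were seen, and a relation of Noct with Arntl was not tested. Nr1d1, the gene of REV-ERB alpha, had -1.19 ± 0.38 and Clock -0.77 ± 0.27. The period genes had 0.20 ± 0.23 (Per1), 0.43 ± 0.29 (Per2) and 0.09 ± 0.35 (Per3), chosen as a family after their values were seen.

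Reported targets of the PAR bZIP factors, with 7 of 9 measured, had 0 genes called (0.0637% of all probes) and a median difference of 0.19. Dropping ASO replicate 4 took the median to 0.10 and dropping saline replicate 1 took it to 0.12. At an unadjusted p under 0.05, 1 of 7 was lower (6.66% of all probes) and 0 higher (4.58%). Cyp2b10, a drug-metabolising cytochrome P450, had -1.04 ± 0.40 (log2, SE), Cyp3a11 -0.53 ± 0.25 and Alas1, the first enzyme of haem synthesis, 0.62 ± 0.33. Other rhythmic liver genes, 13 of 14 measured, had a median of 0.13 and 0 called (0.0637% of all probes). At an unadjusted p under 0.05, 1 was higher (4.58% of all probes) and 1 lower (6.66%). Dropping saline replicate 4 took the median to 0.0031, and dropping ASO replicate 5 took it to 0.08. The 2 genes were the vasopressin receptor gene Avpr1a (0.71 ± 0.24) and the liver glycogen synthase gene Gys2 (-0.66 ± 0.25), followed by Elovl3 (-0.47 ± 0.36).

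Glucocorticoid response genes, the group to which Tsc22d3 belongs, were measured for 12 of 12 and had a median of 0.09. Of these, 0 were called (0.0637% of all probes). At an unadjusted p under 0.05, 2 were higher (4.58% of all probes) and 0 lower (6.66%). The median moved by over 1.5 times when any of 7 arrays was dropped, to 0.03, 0.017, 0.21 and 0.14 for saline replicates 1, 3, 4 and 5 and to 0.15, 0.20 and 0.013 for ASO replicates 1, 3 and 5. The higher genes were Errfi1, a feedback inhibitor of the EGF receptor (0.83 ± 0.25, log2, SE), and the kinase gene Sgk1 (0.60 ± 0.23), followed by Fkbp5 (0.46 ± 0.23). Deadenylases and relatives of Noct, 9 of 10 measured, had a median of -0.20 and 0 called (0.0637% of all probes). At an unadjusted p under 0.05, 3 were lower (6.66% of all probes) and 1 higher (4.58%). Cnot6, a catalytic subunit of the CCR4-NOT complex from the family of Noct, had -0.92 ± 0.25. Its groups did not overlap, as at 2.37% of all probes. Pan2 had -0.97 ± 0.35 and Parn, a poly(A) ribonuclease, -0.53 ± 0.21. The gene that was higher was Pan3, the partner of Pan2 (0.45 ± 0.18). The deadenylase median was -0.06 after quantile and -0.10 after cyclic loess normalization.

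Reported miR-122 targets, in which Noct was not included, had 12 of 14 names measured and a median of 0.47. Of the 12, 0 were called (0.0637% of all probes). The names Hfe2 and Hjv stand for the same gene, which was measured as Hjv. At an unadjusted p under 0.05, 6 were higher (4.58% of all probes) and 0 lower, with Bckdk at 1.22 ± 0.25, Ndrg3 at 0.92 ± 0.22 and Cd320 at 0.69 ± 0.20 (log2, SE). Some of these genes entered the literature through inhibition of miR-122 in mice, perhaps in these animals, so their direction is not independent evidence. Noct had a larger difference than each of the 12.

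**Figure D4:**
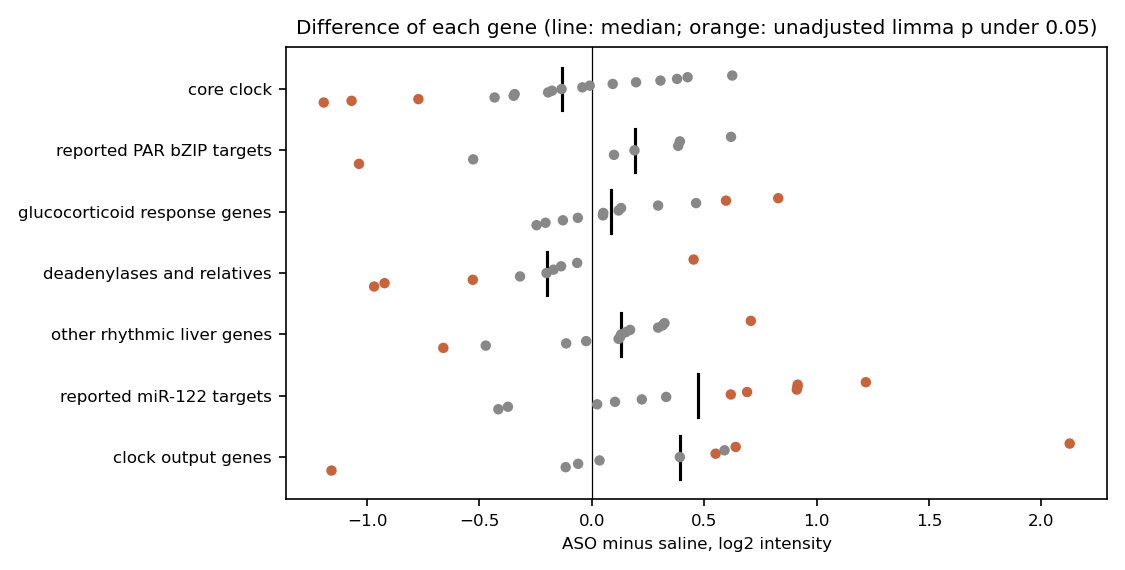
ASO minus saline difference in log2 intensity of every measured gene of 6 lists and of the 9 clock output genes at their brightest probes; black lines are medians and orange points have an unadjusted limma p under 0.05. Noct (2.13) lies to the right of every other gene shown, while Arntl, Nr1d1 and Clock are the orange core clock genes on the left.

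In a whole liver, fewer cells of a type and less RNA per cell cannot be told apart. The summed intensity of marker lists for other cell types overlapped between the groups in every list measured. For Kupffer cells and macrophages (5 of 7 measured) it was 49.8 to 99.5 in saline and 22.8 to 73.0 in ASO livers, with 2 markers higher and 3 lower and a median log2 difference of -0.20. Among these, Mpeg1 had -1.45 ± 0.48 (log2 difference, SE), C1qa -0.67 ± 0.41 and Adgre1 0.26 ± 0.23. Only Mpeg1, 1 of 5 Kupffer markers, had an unadjusted limma p under 0.05, against 11.2% of all probes. For endothelium (6 of 6) it was 53.8 to 95.7 and 34.0 to 117, for stellate cells (7 of 7) 121 to 179 and 104 to 174, and for bile duct (4 of 4) 6.05 to 7.65 and 5.31 to 7.25. For B cells (2 of 3) it was 5.46 to 10.3 and 4.10 to 6.45, for T and NK cells (3 of 3) 1.82 to 2.11 and 1.57 to 2.49, and for red blood cells, through Alas2 alone, 48.3 to 102 and 29.8 to 84.6. The hepatocyte sum (5 of 7) was 2097 to 5357 and 4593 to 6424. These sums are set by the brightest markers. Of the other lists 3 single markers had an unadjusted limma p under 0.05, against 11.2% of all probes. They were Ms4a1 (1 of 2 B cell markers) at -0.57 ± 0.16, Cdh5 (1 of 6 of endothelium) at 0.87 ± 0.28 and Krt19 (1 of 4 of bile duct) at -0.62 ± 0.24 (log2 difference, SE). The groups did not overlap for Ms4a1, as at 2.37% of all probes. In limma 0 markers were called, against 0.0637% of all probes. No marker lay at the floor on all arrays. The part of cell makeup in the differences of the clock output genes was not tested.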

How the data were processed

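The authors deposited linear array intensities with nearly equal medians; arrays were biotin-labelled by the CodeLink protocol, per the labels' protocols, and the sources used here do not give the software, background subtraction or scaling. Probes with under 3 values in a group were left out (139 of 36227). Before taking log2, values were raised to a floor at the 10th percentile of positive values (0.192, or -2.38 as log2), which understates differences of dim probes. ASO minus saline was fitted per probe with limma 3.58.1 (lmFit, eBayes) in R 4.3.3 over 36088 probes, without covariates, two-sided, with Benjamini-Hochberg adjustment.

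The annotation gave 21615 probes 1 gene, 681 several and 13931 none; Entrez IDs were matched to a GRCm38.p6 gene table (21487 matched, 0 changed). For each gene the probe with the highest mean stood for it. The ranking of genes most like Noct instead took, of each gene's probes above the median level, the 1 with the highest r. The members and lists were chosen with earlier results of these data known. Every member probe was described; of each list up to 3 genes with the smallest p were named, and as most like Noct the 5 highest group-centred r. Clone names were left out. Relations had been planned around Dbp and were computed for Noct because Dbp has no single-gene probe. Replicates were numbered in accession order, and nothing in the labels says more of the mice, so p-values measure the spread between these samples. Alternatives were quantile and cyclic loess normalization, no floor, a pseudocount, trend and robust variances, array weights, probes above the median level, the mean of a gene's probes, rank correlation and leaving out each array. The fit and the permutation test were tested on simulated data. Python 3.11.15 was used for the rest.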

Additional observations from a re-analysis of the deposited data

Results flagged for a closer look

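Among the 26 sets of 5 mice (13 probes in each group), 2 held a mouse far from the other 4 by Dixon's criterion, where chance gives about 1 in 20. The third Tef probe read -0.87 in saline replicate 4 and -2.38 to -2.15 in the other saline livers, most of them at the floor. The dimmer Lonrf3 probe read -2.38, the floor, in ASO replicate 3 and -0.75 to -0.51 in the other ASO livers.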

How the results depend on the processing

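The count of 23 probes called over the whole table was 39 after cyclic loess normalization, 37 with a pseudocount, 42 with trend and robust variances, 73 with only probes above the median level and 7 with no floor. It was 0 to 16 when 1 array was left out (1, 0, 3, 2 and 2 without saline replicates 1 to 5, and 16, 10, 0, 1 and 1 without ASO replicates 1 to 5). The count of within-group relations of Noct past the threshold went from 0 to between 0 and 1 in the fits without 1 mouse. Noct, the 2 brighter Tef probes, Ciart, Usp2, both Upp2 and both Lonrf3 probes kept their sign in all 16 alternatives. The third Tef probe, Hlf, Nfil3 and Tsc22d3 changed sign in 8, 4, 4 and 5 of them. Trend and robust variances leave each difference as it was, so that alternative could not turn a sign. The same holds for no floor at probes without values at the floor. The median over the 9 genes was 0.03 to 0.54 in 15 alternatives, and the core clock median changed sign in 1 of 15; the cause was not tested. The other 5 list medians kept their sign in 15 alternatives each, but all except that of the reported miR-122 targets moved by over 1.5 times in some, such as the other rhythmic genes (0.0031 without saline replicate 4, 0.25 after quantile normalization) and the PAR bZIP targets (0.10 without ASO replicate 4, 0.32 after quantile normalization). The groups are separate mice and the labels give no pairing between them, so no paired analysis was made. Relations of Dbp, planned, were not run. Signal near the floor limits the third Tef probe and the dimmer Lonrf3 probe.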
